A study of Homo sapiens with 26 samples.

Results

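RNA levels of 9 genes that encode surface proteins targeted by neuroblastoma therapy, GPC2, L1CAM, NCAM1, CD276, DLK1, CD47, CHL1, SSTR2 and PTK7, were followed across 26 RNA-seq libraries of KELLY cells, a MYCN-amplified human neuroblastoma line. The genes were chosen by symbol, with earlier results of these data known, and all 9 of them were among the 26485 genes listed in the count tables. The study asked what loss of the transcriptional co-repressor RUNX1T1 does to these cells. In culture, 3 lines carried a GFP-marked lentiviral vector with a doxycycline-inducible promoter: the empty vector F1HUTG (EV), the RUNX1T1 hairpin sh4 or the RUNX1T1 hairpin shAMB. Each line was kept with doxycycline (Dox) or with its solvent control DMSO for 72 h, with 3 libraries in each of these 6 groups. The xenografts came from KELLY cells with an inducible hairpin grown under the skin of young female NOD SCID gamma mice, hosts without lymphocytes. The study describes this hairpin as the one built on an Ambion siRNA sequence, used in culture as well. Sample titles do not name the hairpin of the tumours, and shAMB matches it by name alone. If they are the same, shAMB and the xenografts share a hairpin and are not independent of each other. Of the 8 xenograft libraries, 4 were labelled WT with control food and 4 RUNX1T1 KO with doxycycline food, although the study's methods describe a knockdown. The labels call these tumours PDX, and the age of the tumours at collection was not given in the sources used here. Count tables label the treatments Neg and Pos, which were taken from these words alone to mean DMSO and Dox. Nothing in the labels says whether libraries of a culture group came from separate cultures, so p-values measure the spread between these samples, which may be technical.

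Antibodies, antibody-drug conjugates, engineered T cells and radioligands reach a tumour cell only through molecules on its outer membrane, and the level of the target on that membrane bears on how well they bind. SSTR2 is the somatostatin receptor that carries radiolabelled somatostatin analogues into neuroendocrine tumours. GPC2 is a heparan sulfate proteoglycan tethered to the membrane, abundant in the developing nervous system and low in most adult tissue. L1CAM, its close relative CHL1 and NCAM1 are immunoglobulin-family adhesion molecules of growing axons. DLK1 is a Notch-ligand-like membrane protein of precursor and chromaffin cells, and PTK7 is a Wnt co-receptor with an inactive kinase domain. CD276 (B7-H3) is a relative of the immune checkpoint ligands, and CD47 binds SIRPA on macrophages and restrains phagocytosis.

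The libraries held 35115915 to 54736733 counts in culture and 47346063 to 62378060 in the xenografts. No pair of libraries of a group agreed within sampling noise (chi-square per degree of freedom from 1.80 to 248). All 8 sympathetic neuroblast markers looked at, among them HAND2, GATA3 and MYCN, had a mean of at least 1 CPM (counts scaled to the size of the library) in every group, and HBA1 and HBB were at 0 counts throughout. Markers above 1 CPM were not thereby stable. Mean MYCN with DMSO and Dox was 2194 and 2301 CPM in EV, 2192 and 3513 CPM in sh4, and 2128 and 6316 CPM in shAMB. It was 2595 CPM in control and 7157 CPM in KO xenografts. The targeted gene, RUNX1T1, did not fall past the test in any treatment comparison. It was lower in sh4 than in EV with DMSO (-0.29, adjusted p = 0.0144), and its shAMB effect was above its EV effect (0.21, adjusted p = 0.0353; log2 scale). It ranged from 39.3 to 44.1 CPM in EV with DMSO and from 36.5 to 38.6 CPM with Dox, from 33.3 to 35.01 and 30.1 to 33.9 CPM in sh4, from 39.9 to 42.0 and 41.3 to 44.1 CPM in shAMB, and from 30.002 to 43.1 CPM in control against 24.3 to 35.2 CPM in KO xenografts. Its log2 fold changes were -0.16 for EV (adjusted p = 0.672), -0.11 for sh4 (0.117), 0.06 for shAMB (0.378) and -0.23 for the tumours (0.229). The study reports lower RUNX1T1 protein in KELLY cells with each of its hairpins after Dox, and loss of its staining in KELLY xenografts. These libraries measure RNA and not protein. On RNA alone the groups are called by their labels throughout, and a direction is that between labels. Libraries also differed in how counts followed the GC content of a gene, measured as the log2 deviation per 10% of GC. This slope lay between -0.27 and -0.13 in the shAMB libraries with DMSO and between 0.06 and 0.25 with Dox, without overlap. The third sh4 library with Dox stood apart from its group, with a slope of 0.22 beside -0.18 and -0.11, so sh4 results are also given without it.

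Changes of these genes are set against the share of all tested genes that passed the same test (edgeR, adjusted p under 0.05). CHL1 had too few counts to be tested, so 8 of the 9 genes were tested in each comparison. With the EV line, 0 of the 8 changed with Dox, beside 0.0939% of all genes; 0 had an unadjusted p under 0.05 and DESeq2 also called 0. With sh4, 2 changed (background 40.9%), CD276 higher and NCAM1 lower, a count that was 6 without the third Dox library, where 53.4% of all genes changed, and 7 with the GC and length trends removed, where 57.2% did. With shAMB, 6 were higher and 0 lower (66.0% of all genes changed, 37.6% higher). In the xenografts labelled RUNX1T1 KO, 4 were higher and 2 lower (41.1% changed, 21.2% higher and 19.9% lower). A count of 6 among 8 beside a background of 66.0% is no result about these genes as a group, and the values of each gene are what follows. The 8 genes had a median log2 fold change of 0.17 for EV, -0.21 for sh4, 0.79 for shAMB and 0.24 for the tumours, against all-gene medians of 0.0099, -0.0046, 0.10 and 0.019. The differences of the sh4 and shAMB effects from the EV effect share the EV libraries.

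**Figure D1:**
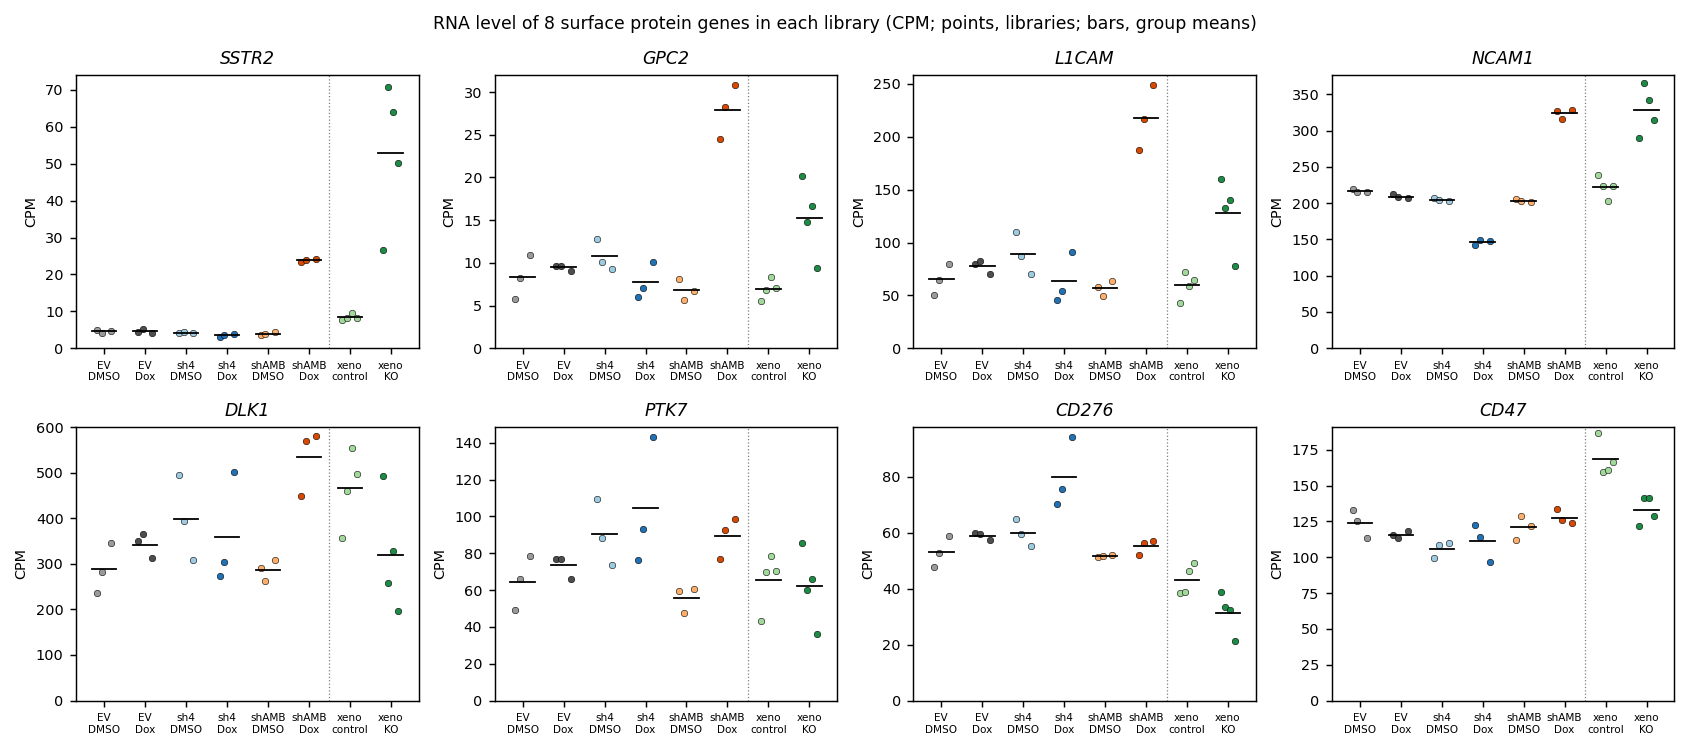
RNA level in CPM (linear axes from 0) of the 8 tested genes in each library of the 6 culture groups and, right of the dotted line, the 2 xenograft groups, fitted separately; points are libraries and bars are group means. SSTR2, GPC2, L1CAM and NCAM1 stand above their controls in shAMB with Dox and in the KO xenografts, whereas CD276 is highest in sh4 with Dox.

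SSTR2, a G protein-coupled receptor, had the highest rise of the 8 genes in both shAMB and the xenografts. The gene lies at chr17:73165010-73176633 on the plus strand (GRCh38), and 3.55% of its exon bases are shared with a non-coding gene on the same strand, which counting could split. Its promoter is shown with those of GPC2 and L1CAM because these 3 genes had the highest log2 fold changes of the 8 tested in shAMB. The sequences are the 250 bases before a RefSeq start site (GRCh38.p14), 5′ to 3′ on the strand of the gene. Capitals mark CANNTG, the general E-box pattern of basic helix-loop-helix factors such as HAND2, which reads the same on both strands. The windows cover chr17:73164760-73165009 for SSTR2 (plus strand), chr7:100177382-100177631 for GPC2 (minus strand) and chrX:153876015-153876264 for L1CAM (minus strand, the upstream of its 2 listed RefSeq starts). The L1CAM window lies within the annotated gene, which starts on its strand at position 153886173. The bases before that outermost start are therefore not shown.
SSTR2: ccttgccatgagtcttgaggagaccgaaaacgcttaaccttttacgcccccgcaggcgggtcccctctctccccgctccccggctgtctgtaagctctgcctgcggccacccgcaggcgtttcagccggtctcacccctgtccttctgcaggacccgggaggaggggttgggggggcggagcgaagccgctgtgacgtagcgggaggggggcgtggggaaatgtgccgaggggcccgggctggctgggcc
GPC2: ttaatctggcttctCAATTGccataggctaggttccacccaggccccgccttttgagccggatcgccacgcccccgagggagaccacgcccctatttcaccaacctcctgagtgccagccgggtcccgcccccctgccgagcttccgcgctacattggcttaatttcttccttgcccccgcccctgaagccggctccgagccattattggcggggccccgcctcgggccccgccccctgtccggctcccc
L1CAM: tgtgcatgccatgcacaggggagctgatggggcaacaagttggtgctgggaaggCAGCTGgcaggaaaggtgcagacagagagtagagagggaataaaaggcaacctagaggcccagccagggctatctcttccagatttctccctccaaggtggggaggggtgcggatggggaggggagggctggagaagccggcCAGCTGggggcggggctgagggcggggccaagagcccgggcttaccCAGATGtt
The window of L1CAM held 3 matches, that of GPC2 held 1 and that of SSTR2 held 0. Of 35116 promoter windows of this length, 61.8% held at least 1 match, with a mean of 1.05 matches. The windows were 69.2% (SSTR2), 66.8% (GPC2) and 62.8% (L1CAM) GC, beside a median of 58.0% over all windows. RefSeq promoters were at hand for 7 of the 9 genes, and the windows of CD276, CD47, CHL1 and PTK7 also held 0 matches. A match is a run of letters and not a bound site. In KELLY cells the study mapped RUNX1T1 almost only to regions between genes, and not to promoters.

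SSTR2 was at 3.47, 3.90 and 4.36 CPM in the shAMB libraries with DMSO and at 23.5, 23.9 and 24.1 CPM with Dox. All 3 treated libraries stood far above all 3 controls, and they lay close together. This was a rise of 2.61 on the log2 scale (SE 0.110, adjusted p = 2.03e-11), 6.10-fold. In the xenografts SSTR2 was at 7.70, 8.13, 9.51 and 8.21 CPM in controls and at 26.7, 70.8, 64.1 and 50.2 CPM in the KO group. The groups did not overlap, and the first KO tumour was well below the other 3. SSTR2 rose there by 2.66 on the log2 scale (SE 0.257, adjusted p = 3.53e-05), 6.31-fold. Neither EV (5.02, 4.24 and 4.64 CPM with DMSO, 4.43, 5.13 and 4.18 CPM with Dox) nor sh4 (4.02, 4.48 and 4.19 CPM, then 3.14, 3.504 and 3.95 CPM) showed such a rise. In sh4 all 3 Dox libraries were below the DMSO libraries, at a log2 fold change of -0.26 that missed the threshold (adjusted p = 0.0703), and that passed without the third Dox library (-0.35, adjusted p = 0.0206) or with the GC and length trends removed (-0.36, adjusted p = 0.0104). The shAMB effect exceeded the EV effect by 2.62 (SE 0.154, adjusted p = 2.87e-09), and the sh4 effect was below the shAMB effect by a log2 difference of -2.87 (SE 0.154, adjusted p = 7.91e-10). SSTR2 has 45.7% GC, near the median of 47.9% over tested genes. Removing the GC and length trends of the libraries left its rise at 2.64 in shAMB and 2.56 in the xenografts.

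GPC2, the membrane-tethered glypican, rose in the same comparisons. It lies at chr7:100169606-100177381 on the minus strand, and its exons overlap no other annotated gene. In shAMB it was at 8.06, 5.61 and 6.66 CPM with DMSO and at 24.5, 28.3 and 30.8 CPM with Dox. Every treated library was thus above every control. On the log2 scale the rise was 2.04 (SE 0.221, adjusted p = 9.14e-07), 4.11-fold. Xenograft controls held 5.57, 6.82, 8.36 and 7.02 CPM of GPC2, and KO tumours held 20.1, 14.8, 16.7 and 9.38 CPM. The groups did not overlap, although the fourth KO tumour came close to the highest control. Their log2 difference was 1.13 (SE 0.221, adjusted p = 0.00210), 2.19-fold. In EV, GPC2 was at 5.77, 8.23 and 10.95 CPM with DMSO and 9.66, 9.66 and 9.07 CPM with Dox, which overlap (log2 fold change 0.19, 95% confidence interval -0.27 to 0.66). In sh4 it was at 12.8, 10.1 and 9.28 CPM with DMSO and 5.95, 7.03 and 10.1 CPM with Dox. The third Dox library lay among the controls and the others below them. GPC2 had a log2 fold change there of -0.48, which missed the threshold (SE 0.217, adjusted p = 0.0867) and passed without that library (-0.73, adjusted p = 0.00956), by DESeq2 (-0.50, adjusted p = 0.0479) and with trends removed (-0.30, adjusted p = 0.00493). The shAMB effect exceeded that in EV by 1.85 (SE 0.309, adjusted p = 0.000160), and the sh4 effect was below the shAMB effect by a log2 difference of -2.52 (SE 0.309, adjusted p = 5.40e-06), or -1.48 with the trends removed. At 61.2%, GPC2 has the highest GC content of the 9 genes. With the GC and length trends removed, its rise was 1.18 in shAMB and 0.85 in the xenografts, past the threshold in each, and the part of the trend in the larger value was not tested.

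L1CAM, the founding member of the L1 adhesion family, followed GPC2 closely. It lies at chrX:153861514-153886173 on the minus strand, and 6.04% of its exon bases are shared with a gene on the same strand and 4.94% with L1CAM-AS1 on the other, so reads could be split if counting ignored strand, which was not given in the sources used here. With shAMB, L1CAM was at 58.2, 49.3 and 63.9 CPM with DMSO and at 187, 217 and 249 CPM with Dox. The treated libraries were all above the controls. L1CAM rose by 1.93 on the log2 scale (SE 0.231, adjusted p = 2.71e-06), 3.81-fold. KO xenografts, at 160, 133, 140 and 78.0 CPM, were all above the controls, at 43.0, 71.9, 58.9 and 64.9 CPM. As for GPC2, the fourth KO tumour was the lowest of its group. This tumour also had the lowest GC slope of the KO group, at -0.22. The rise was 1.10 on the log2 scale (SE 0.212, adjusted p = 0.00198), 2.14-fold. EV held 50.8, 64.8 and 80.1 CPM with DMSO and 79.8, 82.8 and 70.0 CPM with Dox, groups that overlap (log2 fold change 0.25, 95% confidence interval -0.23 to 0.73). In sh4, L1CAM was at 110, 86.8 and 70.6 CPM with DMSO and at 45.6, 54.6 and 91.1 CPM with Dox, where the third library again lay among the controls. The sh4 value of -0.49 on the log2 scale missed the threshold (SE 0.225, adjusted p = 0.0970) and passed without that library (-0.83, adjusted p = 0.00209), without the third DMSO library (-0.63, adjusted p = 0.0477) and with trends removed (-0.41, adjusted p = 1.81e-05). The shAMB effect was above the EV effect by 1.68 (SE 0.321, adjusted p = 0.000516), and the sh4 effect below the shAMB effect by a log2 difference of -2.42 (SE 0.321, adjusted p = 1.28e-05), or -1.53 with the trends removed. L1CAM has 60.0% GC, and with trends removed its rise was 1.12 in shAMB and 0.83 in the xenografts, past the threshold in each.

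NCAM1, the neural cell adhesion molecule (CD56), moved in opposite directions with the 2 hairpins, at a small spread between libraries. It lies at chr11:112961275-113278436 on the plus strand, and 7.89% of its exon bases overlap non-coding genes on the other strand, NCAM1-AS1 among them, so its reads are uncertain to that extent where strand was not used. With sh4 it was at 208, 204 and 203 CPM with DMSO and 142, 149 and 148 CPM with Dox. With shAMB it was at 206, 203 and 201 CPM with DMSO and 327, 316 and 328 CPM with Dox. The DMSO groups of both lines coincide, and neither pair of groups overlaps. NCAM1 fell by 0.49 on the log2 scale with sh4 (SE 0.0311, adjusted p = 6.30e-09; -0.49 without the third Dox library) and rose by 0.67 with shAMB (SE 0.0311, adjusted p = 6.02e-11). The difference between these effects was -1.16 (SE 0.0440, adjusted p = 2.04e-11), and each differed from the EV effect, by -0.43 for sh4 (adjusted p = 2.47e-06) and 0.72 for shAMB (adjusted p = 4.15e-09). In EV, NCAM1 was at 219, 215 and 216 CPM with DMSO and 212, 208 and 208 CPM with Dox; the groups do not overlap, and the log2 fold change of -0.05 was not past the threshold (adjusted p = 0.672). In the xenografts, controls were at 238.2, 223, 203 and 224 CPM and KO tumours at 290, 366, 343 and 315 CPM. All KO tumours were above all controls, by 0.57 on the log2 scale (SE 0.0958, adjusted p = 0.000915), a call that was lost on the TPM scale (0.60, adjusted p = 0.247).

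CHL1, the close homologue of L1CAM, was near the limit of detection. It lies at chr3:196763-409417 on the plus strand. It had 0 to 6 counts per culture library, with 0 counts in all 3 sh4 libraries with Dox and 3, 5 and 6 counts in shAMB with Dox. Xenograft controls had 3, 1, 2 and 20 counts and KO tumours 1, 3, 5 and 2. Only the fourth control, at 0.335 CPM, stood out. At these counts no fold is given, and no difference was detectable at this depth. A count of 0 in the sh4 libraries with Dox allows up to 0.0592 to 0.0763 CPM (3 counts of the library total, for counting error only).

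DLK1, an imprinted gene of the chromosome 14 cluster at chr14:100725705-100738224 on the plus strand, rose with shAMB, whereas its lower level in the KO xenografts missed the threshold. With shAMB it was at 291, 262 and 309 CPM with DMSO and at 449, 570 and 581 CPM with Dox. The groups did not overlap. DLK1 rose by 0.89 on the log2 scale (SE 0.209, adjusted p = 0.00145), and 0.56 with GC and length trends removed, past the threshold as well. EV, at 237, 282 and 345 CPM with DMSO and 350, 364 and 312 CPM with Dox, leaned upwards within overlapping groups (log2 fold change 0.25, 95% confidence interval -0.19 to 0.69). The shAMB effect exceeded that of EV by 0.64, which missed the threshold (adjusted p = 0.0854) but passed with trends removed (0.42, adjusted p = 0.0313), on the TPM scale (0.85, adjusted p = 0.0234) and in the fit of those groups alone (0.58, adjusted p = 0.0135). With sh4, DLK1 was at 495, 393 and 309 CPM with DMSO and 272, 304 and 502 CPM with Dox, where the third library was above both others and above every control. Its log2 fold change was -0.15 (adjusted p = 0.582), and -0.47 without that library (adjusted p = 0.0312). The sh4 effect was below the shAMB effect by a log2 difference of -1.05 (SE 0.293, adjusted p = 0.00633), or -0.61 with the trends removed. Xenograft controls held 358, 460, 553 and 496 CPM and KO tumours 493, 258, 328 and 196 CPM. The groups overlap through the first KO tumour alone. The first control and the first KO tumour had the lowest and the highest GC slope of the 8, at -0.23 and 0.25. The difference of -0.55 on the log2 scale missed the threshold (SE 0.244, adjusted p = 0.0949), but passed by DESeq2 (-0.57, adjusted p = 0.0457), with trends removed (-0.63, adjusted p = 0.00590), without the first control (-0.70, adjusted p = 0.0446) and without the first KO tumour (-0.85, adjusted p = 0.00379).

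PTK7, the planar polarity and Wnt co-receptor at chr6:43076307-43161719 on the plus strand, was higher with shAMB, a call that was lost once the GC and length trends were removed. It was at 59.5, 47.4 and 60.4 CPM with DMSO and 76.9, 92.8 and 98.9 CPM with Dox, without overlap. With shAMB the log2 fold change was 0.68 (SE 0.212, adjusted p = 0.0102), against 0.04 with the trends removed (adjusted p = 0.671) and 0.58 without the second DMSO library (adjusted p = 0.0510). PTK7 has 58.3% GC. Its level overlapped between treatments in EV (49.0, 65.8 and 78.5 CPM, then 76.9, 77.1 and 66.2 CPM) and in sh4 (110, 88.6 and 73.8 CPM, then 76.5, 93.4 and 143 CPM). The values there were log2 fold changes of 0.19 (adjusted p = 0.698) and 0.20 (adjusted p = 0.461), the second of these past the threshold with trends removed (0.25, adjusted p = 0.00828) and turned to -0.094 without the third Dox library (adjusted p = 0.686). The sh4 effect differed from the shAMB effect by -0.48 (adjusted p = 0.172), and by -0.74 without the third sh4 library with Dox (adjusted p = 0.0143). In the xenografts it was at 43.0, 69.9, 78.7 and 70.2 CPM in controls and 85.5, 60.2, 66.1 and 36.2 CPM in KO tumours, a log2 fold change of -0.08 with a 95% confidence interval of -0.61 to 0.45.

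CD276, the checkpoint-like B7 molecule at chr15:73683966-73714514 on the plus strand, was the gene that rose with sh4. It was at 65.0, 59.6 and 55.1 CPM with DMSO and 70.3, 75.7 and 94.2 CPM with Dox. The groups did not overlap, and the third Dox library was the highest. CD276 rose by 0.42 on the log2 scale (SE 0.0938, adjusted p = 0.00206), 1.34-fold, and by 0.29 without that library (adjusted p = 0.00563). Its difference from the EV effect missed the threshold (0.27, adjusted p = 0.135) but passed with trends removed (0.63, adjusted p = 0.000258) and on the TPM scale (0.49, adjusted p = 0.00463). EV was at 47.8, 52.9 and 58.9 CPM with DMSO and 60.0, 59.4 and 57.5 CPM with Dox. With shAMB, CD276 was at 51.4, 51.5 and 51.9 CPM with DMSO and 52.2, 56.3 and 57.2 CPM with Dox, a log2 fold change of 0.10 (adjusted p = 0.373). CD276 has 60.0% GC, and with the trends removed this value turned to -0.67 and passed the threshold (adjusted p = 1.13e-06), so its direction with shAMB depends on that step. On the TPM scale it was 0.25 (adjusted p = 0.0190). The sh4 effect exceeded the shAMB effect by 0.32 (SE 0.133, adjusted p = 0.0481), a call lost in the fit of those groups alone (adjusted p = 0.0646) and kept in only 3 of the 12 fits that each left out 1 library. With trends removed this difference was 1.24 (adjusted p = 4.05e-08). In the xenografts, controls were at 38.5, 38.7, 46.3 and 49.0 CPM and KO tumours at 38.8, 33.4, 32.4 and 21.4 CPM, which overlap at the first KO tumour. KO tumours differed from controls by -0.45 on the log2 scale (SE 0.166, adjusted p = 0.0481). This call was lost on the TPM scale (adjusted p = 0.461) and kept in only 2 of the 8 fits that each left out 1 tumour (-0.31, adjusted p = 0.0625, without the fourth KO tumour). With trends removed it was -0.71 (adjusted p = 8.71e-05).

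CD47, the antiphagocytic signal at chr3:108043091-108091862 on the minus strand, was lower in the KO xenografts. Controls were at 187, 160, 161 and 166 CPM and KO tumours at 122, 141, 141 and 129 CPM. Every KO tumour was below every control. CD47 had a log2 fold change of -0.34 there (SE 0.0864, adjusted p = 0.00959), 1.26-fold lower, and it lost the threshold on the TPM scale (-0.30, adjusted p = 0.669). With the trends removed it was -0.41 (adjusted p = 0.000491). In culture its groups overlapped in all 3 lines, at 133, 125 and 114 CPM against 115, 113 and 119 CPM in EV, 99.6, 108 and 110 CPM against 123, 114 and 96.4 CPM in sh4, and 112, 129 and 122 CPM against 133, 126 and 124 CPM in shAMB. None of these differences passed the threshold (log2 fold changes -0.10, 0.07 and 0.08). Without the third sh4 library with Dox the sh4 value was 0.16 (adjusted p = 0.0639), and the sh4 effect then exceeded the EV effect by 0.26 (adjusted p = 0.0308). On the TPM scale those of sh4 (0.24, adjusted p = 0.0307) and shAMB (0.26, adjusted p = 0.0128) passed, where the median of all genes was itself 0.16 and 0.26. CD47 has 38.4% GC, the lowest of the 9 genes, and with trends removed the shAMB value rose to 0.21 and passed (adjusted p = 6.37e-06), while the sh4 value turned to -0.09 and also passed (adjusted p = 0.0190).

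**Figure D2:**
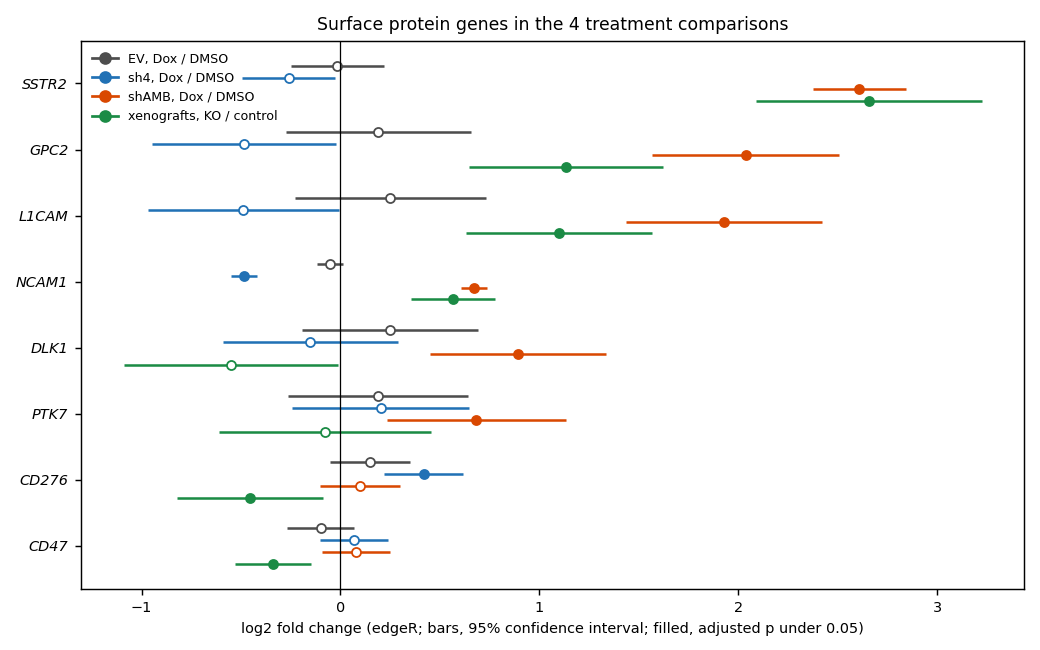
Log2 fold change of the 8 tested genes in the 4 treatment comparisons (edgeR, Dox over DMSO in each line and KO over control in the xenografts), with 95% confidence intervals; filled points have an adjusted p under 0.05. SSTR2 is near 2.61 and 2.66 in shAMB and the xenografts, and NCAM1 lies at -0.49 in sh4 and 0.67 in shAMB.

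With shAMB, the 5 genes of 55.1% GC or more moved furthest when the trends on GC content and gene length were removed, and SSTR2 moved least. The count called then went from 6 to 7 of 8, beside 73.0% of all genes, because PTK7 was lost while CD276 (lower) and CD47 (higher) were gained. The 4 genes with the highest rises, SSTR2, GPC2, L1CAM and DLK1, and NCAM1 kept their direction and their side of the threshold under that step.

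**Figure D3:**
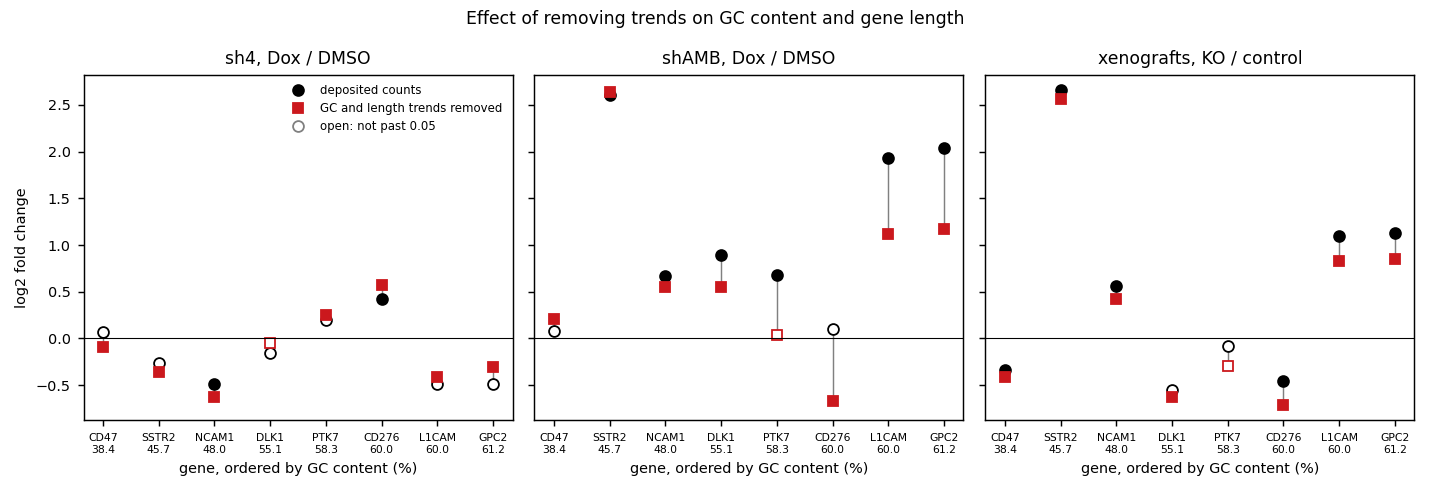
Log2 fold change of each gene before (black circles) and after (red squares) trends on GC content and gene length were removed, in 3 comparisons, with genes ordered from left to right by GC content (percent under each name); open symbols are not past the threshold. In shAMB, GPC2 moves from 2.04 to 1.18 and CD276 from 0.10 to -0.67, whereas SSTR2 stays near 2.6.

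Without induction no difference between the lines passed the threshold in these genes. With DMSO, 0 of the 8 genes differed between sh4 and EV (1.12% of all genes differed; 4 had an unadjusted p under 0.05 and DESeq2 called 0), and 0 differed between shAMB and EV (1.52% of all genes; 2 with an unadjusted p under 0.05 and 0 by DESeq2). The lowest adjusted p among them was 0.155, for CD47 at a log2 difference of -0.23 between sh4 and EV. With trends removed, NCAM1 passed between shAMB and EV, at a log2 difference of -0.10 (adjusted p = 0.00768). Against the EV effect, 1 of the 8 genes differed for sh4 (background 32.6%) and 4 for shAMB (background 45.5%), while 6 differed between the 2 hairpins (background 60.9%). For sh4 against EV this count was 3 with the trends removed (47.0% of all genes) and 3 on the TPM scale (41.9%). It was 5, 3 or 2 without the third library of sh4 with Dox, of EV with DMSO or of sh4 with DMSO, where 50.1%, 36.1% or 33.9% of all genes differed. These comparisons share libraries, so their calls are not independent of each other.

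Per gene length, DLK1 was the most abundant of the 9 transcripts in every group. Its share of the summed TPM (transcripts scaled by gene length and library size) of the 9 genes was 63.4% ± 2.85 (SD, n = 3) in EV with DMSO and 66.6% ± 2.20 (n = 3) in shAMB with Dox, and it was 72.7% ± 3.23 (SD, n = 4) in control and 56.8% ± 8.37 (n = 4) in KO xenografts. In EV with DMSO the other TPM levels ran from NCAM1 (73.6 ± 2.08) through CD47 (47.3 ± 4.52), CD276 (40.3 ± 3.34), PTK7 (31.9 ± 6.84), L1CAM (26.5 ± 5.55), GPC2 (6.78 ± 2.01) and SSTR2 (3.28 ± 0.327) to CHL1 (0.0100 ± 0.0100). The neighbours CD47 and CD276 lay within the sum of their SDs, as did CD276 and PTK7, and PTK7 and L1CAM, and NCAM1 stood clear of CD47. L1CAM was sixth of the 9 in all other groups but rose to the third place in shAMB with Dox, at 7.86% ± 0.434 of the sum (3.76% ± 0.253 with DMSO), and in KO xenografts, at 6.71% ± 0.724 (2.71% ± 0.445 in controls). SSTR2, last but for CHL1 in every culture group, held 0.450% ± 0.0469 in shAMB with DMSO and 1.52% ± 0.153 with Dox. In the xenografts it went from 0.667% ± 0.0550 in controls to 5.29% ± 2.34 in KO tumours, beside 1.61% ± 0.134 for GPC2 and 3.09% ± 0.311 for CD276. SSTR2 was above CD276 in 3 of the 4 KO tumours and below it in the first. Shares rather than TPM are compared between culture and xenografts, because genes with names of small RNAs held 70.9% to 84.6% of the TPM of the xenograft libraries and 0.555% to 1.10% of that in culture.

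**Figure D4:**
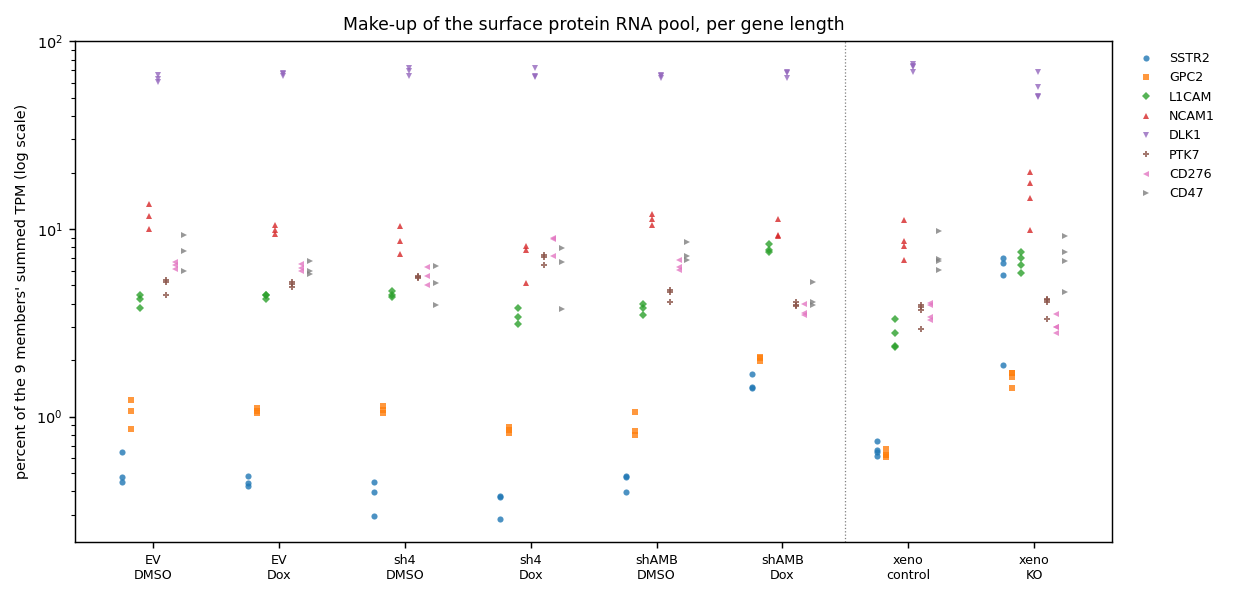
Share of the summed TPM of the 9 genes taken by 8 of them in each library (percent, log axis; CHL1, near 0, is not drawn), by group. DLK1 holds the largest share in every library, and SSTR2 and L1CAM take larger shares in shAMB with Dox and in KO xenografts.

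The cultured libraries hold KELLY cells alone, while a xenograft can also hold host cells, and fewer cells of a type and less RNA per cell cannot be told apart in bulk samples. Of 6 leukocyte markers, PTPRC and CD3E were at most 0.0726 CPM in any group, and CD68, the highest, reached 1.53 CPM. Of 5 endothelial markers, 1 reached 1 CPM in each group, and their summed level was 8.64 to 14.9 CPM in control and 10.7 to 16.2 CPM in KO xenografts, almost all of it VWF (10.01 and 12.7 CPM), which was also 0.660 CPM in shAMB with DMSO and 5.67 CPM with Dox. The other endothelial markers were at or under 0.679 CPM in the xenografts. Of 5 fibroblast markers, COL1A2 was at 0.0182 and 0.205 CPM, DCN at 0.0739 and 0.121 CPM and LUM at 0.388 and 0.479 CPM in control and KO tumours. COL1A1 (5.15 and 6.36 CPM) and COL3A1 (3.49 and 4.39 CPM) were lower there than in culture, where no group mean was under 8.92 and 14.3 CPM. Of 5 Schwann and mesenchymal markers, S100B and FOSL1 were at most 0.285 CPM in any group, while PRRX1 was at 2.52 CPM in control and 1.35 CPM in KO tumours. The hosts were mice, while these markers are human genes counted against the human genome. Their levels therefore cannot show how much host tissue a tumour held. The part of host cells in the xenograft values was not tested.

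Other genes of the same pathways were looked at as lists of 72 genes in all, of which 71 were listed and 56 (culture) or 62 (xenografts) were tested. Values of these list genes come from the main fit only. Whether they hold with the GC and length trends removed was not tested. With sh4, 21 were higher and 8 lower (51.8% changed), with shAMB 25 and 16 (73.2%), in the xenografts 17 and 15 (51.6%), and in EV 0 and 0, shares to be read beside the backgrounds of 40.9%, 66.0%, 41.1% and 0.0939%.

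Within the somatostatin system, the ligand was lower and the receptors SSTR2 and SSTR3 higher with shAMB and in the xenografts. SST, which encodes somatostatin, the hormone that binds SSTR2, fell by 1.69 on the log2 scale with shAMB, from 32.4 ± 1.63 to 10.04 ± 0.543 CPM (SD, n = 3 each; adjusted p = 3.72e-11). It fell by 1.36 with sh4 (adjusted p = 1.06e-09) and, in the xenografts, by 1.24, from 35.6 ± 5.79 to 15.1 ± 2.55 CPM (n = 4 each; adjusted p = 0.000133). In EV its log2 fold change was -0.29 (adjusted p = 0.362). SSTR3, another receptor for somatostatin, rose by 1.04 with shAMB, from a low 0.804 ± 0.318 to 1.65 ± 0.244 CPM (adjusted p = 0.00256). In the xenografts SSTR3 rose by 1.60, from 3.16 ± 0.483 to 9.62 ± 1.91 CPM (adjusted p = 0.000105). Its shAMB effect was not past the threshold against the EV effect (0.66, adjusted p = 0.174). Of the 6 listed genes of this system, 2 were tested in culture and 3 in the xenografts.

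Among 4 tested glypicans other than GPC2, 1 was higher and 1 lower with shAMB, and 0 were higher and 2 lower in the xenografts. GPC1 rose by 1.09 with shAMB, from 3.24 ± 0.376 to 6.89 ± 1.49 CPM (adjusted p = 0.0119), although its difference from the EV effect was not past the threshold (0.81, adjusted p = 0.194), and was at a log2 fold change of 0.33 in the xenografts (adjusted p = 0.531). GPC6 fell by 0.18 with shAMB (adjusted p = 0.00698) and by 0.42 in the xenografts (adjusted p = 0.00267). Of 10 adhesion relatives of L1CAM and NCAM1, their ankyrin anchors and the polysialic acid enzymes, 5 were higher and 4 lower with shAMB, 2 higher and 6 lower with sh4, and 4 higher and 2 lower in the xenografts. NFASC (neurofascin, an L1-family member of the axon initial segment) rose by 1.34 with shAMB, from 70.6 ± 5.16 to 179 ± 20.6 CPM, and by 0.85 in the xenografts. CNTN2, a contactin that binds L1CAM, rose by 1.18 and 1.45, and ANK2, an ankyrin that anchors L1-family proteins to the cytoskeleton, by 1.00 and 0.66. The adjusted p of these 3 genes was at most 0.00189 in either comparison.

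Around the immune-facing members, 3 other B7-family and checkpoint ligand genes were tested in culture. NCR3LG1 (B7-H6, a ligand of a natural killer cell receptor) rose with both hairpins, by 1.14 with sh4 and 1.22 with shAMB, and by 1.27 in the xenografts, from 23.3 ± 0.886 to 56.0 ± 11.4 CPM. PVR, the poliovirus receptor that binds TIGIT, rose by 0.62 with shAMB and 0.44 in the xenografts. Of 6 genes of phagocytosis signalling around CD47, 3 were higher and 2 lower with shAMB. CD24, another antiphagocytic surface protein, fell by 1.05 with shAMB, from 626 ± 14.1 to 303 ± 18.1 CPM, and by 1.32 in the xenografts, from 518 ± 37.2 to 207 ± 5.64 CPM. LRP1, the receptor that takes up calreticulin-marked cells, rose by 1.74 with shAMB (adjusted p = 0.000174) and had a log2 fold change of 0.15 in the xenografts (adjusted p = 0.672). THBS1, a secreted ligand of CD47, rose by 0.70 with shAMB (adjusted p = 0.000844) and had -0.34 in the xenografts (adjusted p = 0.154).

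Of 10 planar polarity and Wnt co-receptor genes around PTK7, 2 were higher and 5 lower with shAMB, and 6 higher and 0 lower with sh4. VANGL1, a core planar polarity protein, fell by 0.98 with shAMB and 1.25 in the xenografts, and rose by 0.79 with sh4 (adjusted p = 0.000394). ROR1, a receptor for WNT5A, fell by 0.47 with shAMB and 0.70 in the xenografts. FZD7, a frizzled receptor, fell by 0.73 with shAMB (adjusted p = 0.000212) and rose by 0.90 in the xenografts (adjusted p = 0.00381). Of 5 tested sheddases and release enzymes, which cut such proteins from the membrane, 2 were higher and 0 lower with shAMB, and BACE1 rose by 0.76 there, by 0.37 with sh4 and by 0.43 in the xenografts. Among the relatives and imprinted neighbours of DLK1, 3 of 4 tested were higher with shAMB, and 3 of 5 higher and 1 lower in the xenografts. They are named here after their values were seen. The 3 genes called with shAMB, MEG3, DIO3 and DLK2, each had a mean under 1 CPM over the culture libraries. MEG3, the maternally expressed non-coding RNA of the DLK1 cluster, had a log2 fold change of 2.36 with shAMB (adjusted p = 4.81e-05) and 2.96 in the xenografts (adjusted p = 3.31e-06). DIO3, a thyroid hormone deiodinase of the same cluster, rose by 1.96 (adjusted p = 9.16e-06) and 1.85 (adjusted p = 0.00307). DLK2, the paralog, rose by 2.10 with shAMB (adjusted p = 0.000136; 1.21 against the EV effect, adjusted p = 0.0876), and MEG8 rose by 2.25 in the xenografts (adjusted p = 0.00272). RTL1, a paternally expressed gene of the cluster like DLK1, fell by 1.30 in the xenografts (adjusted p = 0.00216) and had -0.07 with shAMB (adjusted p = 0.633).

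Of 12 other surface molecules used as therapy targets, 6 were higher and 2 lower with shAMB, 5 higher and 0 lower with sh4, and 2 higher and 4 lower in the xenografts. EGFR rose by 1.79 with shAMB, from 15.2 ± 0.216 to 52.5 ± 2.45 CPM, and by 0.72 in the xenografts. ALK, the receptor tyrosine kinase mutated in some neuroblastomas, rose by 1.09 with shAMB, from 44.7 ± 3.29 to 95.04 ± 7.69 CPM, and had 0.18 in the xenografts (adjusted p = 0.198). ST8SIA1, which makes the ganglioside GD3 on the way to GD2, fell by 1.87 with shAMB, from 2.13 ± 0.196 to 0.584 ± 0.0627 CPM, and by 0.63 in the xenografts (adjusted p = 0.0338).

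The transcripts whose log2 CPM followed each gene most closely over the 18 culture libraries, among 12708 candidates with a mean of at least 1 CPM, are given as a description, since these libraries share line, treatment, depth and GC trend. GPC2 was most like L1CAM (Pearson r = 0.99 over 18 libraries and 0.97 over the 8 xenografts). SSTR2 was most like JARID2 (0.99 and 0.98) and KLF10 (0.99 and 0.97), so its likeness to these genes was as high in the tumours. DLK1 was most like FAM160B2 (0.99 and 0.44) and NCAM1 most like FAM167A (0.99 and 0.13) in culture, with lower values in the tumours. The closest for CD276 was MFAP2 (0.97 and 0.86), for PTK7 ECE1 (0.99 and 0.80), for L1CAM SEPN1 (0.99 and 0.93) and for CD47 FOXN2 (0.96 and -0.25). Among the 9 genes themselves, L1CAM and DLK1 had r = 0.91 in culture and -0.19 in the xenografts.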

How the data were processed

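RNA was sequenced with a stranded total RNA kit, although the labels name polyA RNA, as paired reads. Per the submitters' processing notes the authors used STAR, SAMtools and RSEM with hg38; for these libraries, versions and the use of strand were not given in the sources used here, since the study's methods state versions for mouse ganglia. The deposited expected counts per gene (RSEM; 91.8% of values whole in culture and 91.0% in the xenografts) were rounded, and the deposited TPM values, which the authors' RSEM run scaled by gene length, gave the shares. Columns of other samples not used numbered 0. Depth bounds precision, and counting intervals do not cover variation between libraries.

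Counts were tested with edgeR 4.0.16 in R 4.3.3 (quasi-likelihood F test, TMM factors, filterByExpr, Benjamini-Hochberg adjustment over 14905 genes in culture and 15960 in the xenografts, threshold 0.05). The 18 culture libraries shared 1 fit and the 8 xenografts another, with 9 comparisons. Groups came from sample titles, since the gene name in the genotype label counts up from sample to sample. The scripts were tested on simulated data. Alternatives were RLE factors, DESeq2 1.42.0, no low-count filter, a replicate block, offsets from GC content and length trends (mgcv 1.9.3), limma 3.58.1 on log2(TPM + 0.1), fits of the compared groups alone and each library left out. Annotation was GENCODE on GRCh38, with GC content for 91.1% and 89.9% of tested genes, and promoters were RefSeq GRCh38.p14. All 9 surface protein genes are named, with RUNX1T1, up to 3 genes per related list by absolute log2 fold change among those called with shAMB at a mean of 1 CPM or more, and the genes most correlated with each. The DLK1 neighbours were named after their values were seen, beyond that rule. The members and lists were chosen with earlier results of these data known.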

Additional observations from a re-analysis of the deposited data

Results flagged for a closer look

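Of 24 differences between the effects of lines, 11 passed the test of the difference itself (edgeR, adjusted p under 0.05). The shAMB effect was above the EV effect for SSTR2 by 2.62 (adjusted p = 2.87e-09), for GPC2 by 1.85 (0.000160), for L1CAM by 1.68 (0.000516) and for NCAM1 by 0.72 (4.15e-09), all on the log2 scale. The sh4 effect was below the EV effect for NCAM1, at -0.43 (2.47e-06). The sh4 effect differed from the shAMB effect by -2.87 for SSTR2 (7.91e-10), -2.52 for GPC2 (5.40e-06), -2.42 for L1CAM (1.28e-05), -1.16 for NCAM1 (2.04e-11), -1.05 for DLK1 (0.00633) and 0.32 for CD276 (0.0481). With GC and length trends removed these were -3.00, -1.48, -1.53, -1.18, -0.61 and 1.24. CD276 did not keep its call in 9 of the 12 fits that left out 1 library. The GC slopes of the shAMB libraries move with these differences, and their part in them was not tested beyond the removal of the trends.

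CHL1 in the control xenografts had a library far from the others, at 0.335 CPM (20 counts) beside 1 to 3 counts in the other controls. This gap was past Dixon's 95% critical value for 4 samples. It was the only one of 18 groups of 4 looked at, and chance flags about 1 in 20 such groups.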

How the results depend on the processing

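Few values changed direction or call under other factors, DESeq2 or no low-count filter, while removing GC and length trends changed most. With those trends removed, 7 of 8 genes changed in sh4 (2 as reported), 3 differed between the sh4 and EV effects (1), 7 between the shAMB and EV effects (4) and 1 between shAMB and EV with DMSO (0), beside 57.2%, 47.0%, 60.8% and 6.59% of all genes under that step. On the TPM scale, 3 differed between the sh4 and EV effects and 3 changed in the xenografts (6), beside 41.9% and 13.3% of all genes. The TPM scale moved the all-gene median to 0.16 in sh4 and 0.26 in shAMB, and trend removal moved it to -0.04 in shAMB (log2). Leaving out 1 library gave 0 to 0 genes in EV, 2 to 6 in sh4, 5 to 6 in shAMB, 1 to 5 for the sh4 and EV effects, 4 to 4 for shAMB and EV, 5 to 6 for sh4 and shAMB, and 5 to 7 in the xenografts. The sh4 count was 6 and the sh4 against EV count 5 without the third sh4 library with Dox. A fit with 2 libraries left in a group assumes that they vary like the other groups.

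Directions that turned were mostly of values near 0. RLE factors and DESeq2 gave CD47 0.059 and 0.060 between the sh4 and shAMB effects, and DLK1 0.0080 and 0.0080 between shAMB and EV with DMSO. Without the low-count filter, PTK7 was -0.015 between the sh4 and EV effects and CD47 0.011 between the sh4 and shAMB effects. With trends removed, EV gave GPC2 -0.0091, CD276 -0.054 and SSTR2 0.0048, sh4 gave CD47 -0.087, shAMB gave CD276 -0.67, and the sh4 and EV effects differed by -0.081 for CD47. Under the same step PTK7 was 0.22 between the sh4 and shAMB effects, GPC2 -0.028 and CD276 -0.20 between sh4 and EV with DMSO, and CD276 0.12 and DLK1 0.092 between shAMB and EV with DMSO. On the TPM scale CD276 was 0.14 between the shAMB and EV effects and DLK1 0.0085 between shAMB and EV with DMSO. In the fit of the compared groups alone CD47 was -0.0022 with shAMB. The cause was not tested.

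Leaving out 1 library turned the direction of GPC2 (-0.019 to 0.44) and SSTR2 (-0.11 to 0.047) in EV, of DLK1 (-0.47 to 0.014), CD47 (-0.0087 to 0.16) and PTK7 (-0.094 to 0.38) in sh4, and of PTK7 in the xenografts (-0.28 to 0.11). It also turned PTK7 between the sh4 and EV effects (-0.28 to 0.19), CD276 between the shAMB and EV effects (-0.14 to 0.017), CD47 between the sh4 and shAMB effects (-0.084 to 0.11), and CD276 (-0.12 to 0.036), DLK1 (-0.13 to 0.15) and CD47 (-0.094 to 0.018) between shAMB and EV with DMSO. None of these results was called as reported. Over all fits with 1 library left out, 534 values kept direction and side of the threshold.

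The labels name no shared batch for samples with the same replicate number. Their deviations from the group means had correlations from -0.60 to 0.37. These deviations also carry the GC trends of single libraries, so they cannot tell whether such samples were paired. With a replicate block, the calls of CD276 in the xenografts (-0.48, adjusted p = 0.105), CD47 in the xenografts (-0.34, adjusted p = 0.0547) and CD276 between the sh4 and shAMB effects (0.31, adjusted p = 0.0547) were lost, and PTK7 turned to -0.040 between the sh4 and EV effects and DLK1 to 0.0040 between shAMB and EV with DMSO. The block left 0, 2, 6 and 4 genes changed in EV, sh4, shAMB and the xenografts. For shares of TPM, recomputing from counts and deposited lengths moved 11 of 72 by more than their SD, by at most 1.98 percentage points.

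At these depths CHL1, with 0 to 20 counts, is the member that counts limit.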
